A study of Mus musculus with 11 samples.

Results

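The genes described here encode the enzymes and carriers of glycolysis, of pyruvate use, of the tricarboxylic acid (TCA) cycle and of the exchange of malate, aspartate and glycerol phosphate between cytosol and mitochondria. They were chosen by name, with earlier results of these data known, and 48 of the 55401 genes in the count table belong to the list. The list leaves out genes that beta cells are known to keep silent, so it holds *Hk2* and *Hk3* but not *Hk1*, and *Ldhb* but not *Ldha*, and it does not hold every enzyme of each step. By place in the pathway, 18 members belong to glycolysis, 8 to pyruvate use, 13 to the TCA cycle and 9 to the malate, aspartate and glycerol phosphate exchange.

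Glycolysis splits glucose into pyruvate, and the TCA cycle burns pyruvate carbon to drive the synthesis of ATP. In beta cells this sequence is the glucose sensor, since the ATP it makes closes potassium channels and starts insulin secretion. Beta cells send little pyruvate to lactate, let pyruvate enter the TCA cycle both by oxidation and by carboxylation, and pass reducing equivalents into the mitochondria by shuttles. Isoenzymes of a step differ in their kinetics and in the tissues that express them.

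Islets of 4 male C57BL6/J mice on chow, aged 10 weeks by the labels, were dissociated and sorted by FACS into fractions, which gave 11 RNA-seq libraries. Every mouse carried Cre driven by the rat insulin promoter, a STOP-tdTomato allele that this Cre switches on, and an *Nnat*-EGFP transgene, so that beta cells were red by tdTomato and EGFP followed the activity of the *Nnat* promoter. The labels name 4 of the libraries NNAT-positive beta cells, 4 others NNAT-negative and the last 3 non-beta cells, which lacked tdTomato and are a mixture of the other cells of the islet preparation. Each of mice 1 to 3 contributed to the 3 groups, whereas no non-beta library came from mouse 4. The study's text gives a younger age than the labels for these sorted cells.

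Total counts per library were between 30420352 and 43238376. The insulin genes *Ins1* and *Ins2* took 17.8% to 34.4% of the counts in beta cell libraries and 0.970% to 2.34% in non-beta libraries. *Nnat*, whose promoter drives the EGFP of the sort, went against the labels. Under the NNAT-positive label, mice 1 to 4 had 50.5, 46.4, 46.0 and 101 CPM of it (normalised read count per 1000000 counts after TMM scaling), and under the NNAT-negative label 74.8, 80.8, 66.5 and 153 CPM. In 4 of 4 mice it was thus lower under the positive label, by a log2 difference of −0.62 (SE 0.17, adjusted *p*=0.444 by edgeR and 0.00798 by DESeq2). A table of the study names the same beta cell libraries the other way round, with positive and negative exchanged. Directions between these fractions are given here by the labels, and each of them would change sign under the other naming. Non-beta libraries held marker RNA of several cell types. The summed markers of alpha cells stood at 123480 to 171830 CPM, of acinar cells at 12367 to 47494 CPM, of endothelial cells at 1602 to 1828 CPM and of stellate cells and fibroblasts at 2354 to 4780 CPM. In bulk libraries a difference in a gene's level cannot be told apart from a difference in the share of cells that express it.

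The members were found in RefSeq's promoter set for 45 of 48 genes, with 65 windows of 250 bases before an annotated start (*Idh3a*, *Me2* and *Gpd1* had no entry). The windows below are shown for *Pcx* and *Pfkm*, which were called higher in beta than in non-beta cells and hold the E-box CACGTG. The call of *Pfkm* was lost in 9 of 10 alternative analyses. *Ogdh*, also called higher, holds CACGTG in windows that include annotated exon bases, and these are not shown. A window is also shown for *Hk2*, the member furthest below non-beta cells. *Pcx* and *Pfkm* also have windows at other annotated starts, which hold no CACGTG and are not shown. Which start beta cells use was not examined. Capitals mark CACGTG, the shorter ACGTG that it contains, and the GC box GGGCGG, each searched on both strands. Coordinates are those of GRCm38.p6, sequences run 5′ to 3′ on the gene's strand, and no annotated exon lies in these windows.
Pcx, chr19:4510222-4510471 (plus strand): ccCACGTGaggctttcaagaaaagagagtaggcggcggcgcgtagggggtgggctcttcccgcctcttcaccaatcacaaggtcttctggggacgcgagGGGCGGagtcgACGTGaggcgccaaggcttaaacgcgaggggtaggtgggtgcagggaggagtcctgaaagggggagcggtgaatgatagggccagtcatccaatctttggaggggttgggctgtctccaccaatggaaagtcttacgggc
Pfkm, chr15:98092339-98092588 (plus strand): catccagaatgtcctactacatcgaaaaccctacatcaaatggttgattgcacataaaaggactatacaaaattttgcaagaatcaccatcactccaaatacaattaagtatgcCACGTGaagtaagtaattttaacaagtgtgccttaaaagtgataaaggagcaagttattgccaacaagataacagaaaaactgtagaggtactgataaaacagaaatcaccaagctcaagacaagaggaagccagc
Hk2, chr6:82774455-82774704 (minus strand): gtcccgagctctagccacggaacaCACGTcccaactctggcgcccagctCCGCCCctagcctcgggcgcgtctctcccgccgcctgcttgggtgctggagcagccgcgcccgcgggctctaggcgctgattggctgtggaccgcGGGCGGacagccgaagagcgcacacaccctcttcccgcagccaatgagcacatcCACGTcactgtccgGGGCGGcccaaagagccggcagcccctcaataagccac
In the *Pcx* window ACGTG was found 3 times counting both strands, of which 2 are the strands of the palindromic E-box, and GGGCGG once. The *Pfkm* window held the E-box alone, and the *Hk2* window held ACGTG 2 times and GGGCGG 3 times. Of the members higher in beta cells, 10 of the 16 with a window held ACGTG in at least 1 of their windows (62.5%), against 2 of the 7 lower members (28.6%) and 24.1% of the 12405 tested genes that had a window. Of all genes higher in beta cells, 28.7% held it. Over windows, ACGTG was found in 17 of 30 of the higher members (56.7%), in 23.8% of those of all genes higher in beta cells, in 20.6% of those of tested genes and in 16.6% of all 32851 promoters. Over all members ACGTG was found in 32.3% of windows. CACGTG was found in 7.69% of all member windows, against 7.76% of windows of tested genes and 6.02% of all windows. GGGCGG was found in 49.2% of all member windows, against 54% and 32.7%. In windows of the higher members, CACGTG was found in 16.7% and GGGCGG in 50%, against 9.27% and 57.9% for all genes higher in beta cells. By gene these shares were 18.8% (3 of 16 genes) and 75%, against 11.7% and 66.3%, and 9.36% and 60.6% of tested genes. Windows of 1 gene can overlap and hold the same copy of a motif. A share by gene can also rise with the number of windows per gene. The 16 higher members had 30 windows, the 7 lower ones 8 and the 12405 tested genes 15847. These shares are a description of letters in the windows.

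The first question was how the pathway differs between beta cells and the other islet cells. *Pcx*, which encodes the pyruvate carboxylase that feeds oxaloacetate into the TCA cycle, rose 8.42-fold in beta cells. The next largest rises were those of the neuronal enolase *Eno2* (2.17-fold) and of the mitochondrial glycerol phosphate dehydrogenase *Gpd2* (2.05-fold), while the hexokinases *Hk2* and *Hk3* were nearly absent from beta cells. By edgeR's quasi-likelihood test with an adjusted *p* below 0.01, 18 of the 47 tested members were higher in beta cells (38.3%), against 17.2% of all 17424 tested genes. Another 7 were lower (14.9%), against 23.9% of all genes, and 22 were not called. With a more than 2-fold change as well, 3 members were higher (*Pcx*, *Eno2* and *Gpd2*), against 6.22% of all genes, and 2 were lower (*Hk2* and *Hk3*), against 18.9%. *Hk2* and *Hk3* passed the filter on low counts through the non-beta libraries alone, so their calls had to follow and the last count is not read against its background. Without them 5 members were lower. The direction was the same in 3 of 3 mice for each of the 25 called members. The median log2 fold change was 0.18 over the members and −0.10 over all tested genes. The ranges of beta and non-beta libraries did not overlap for 20 of 47 members (42.6%), against 42.7% of all tested genes.

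The call was kept under each of 10 alternative analyses by 14 of the 25 called members, 9 higher and 5 lower. The 5 lower ones include *Hk2* and *Hk3*, whose calls had to follow from the filter. With RLE in place of TMM scaling the split was 13 higher and 8 lower, against 15.1% and 25.7% of all tested genes. Without the mouse as a block it was 12 and 6, against 13.5% and 22.7%. The markers of other cell types named above moved with this contrast, and their part in it was not tested. Mouse 4 has no non-beta library, so that in the blocked fit it gives no beta against non-beta difference of its own, but its libraries enter the scaling, the filter and the estimate of the spread. Without mouse 4 the split was 15 and 6, against 16.4% and 23.1% of all tested genes, and 4 calls were lost (*Pfkm*, *Idh3b*, *Sucla2* and *Me2*).

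**Figure D1:**
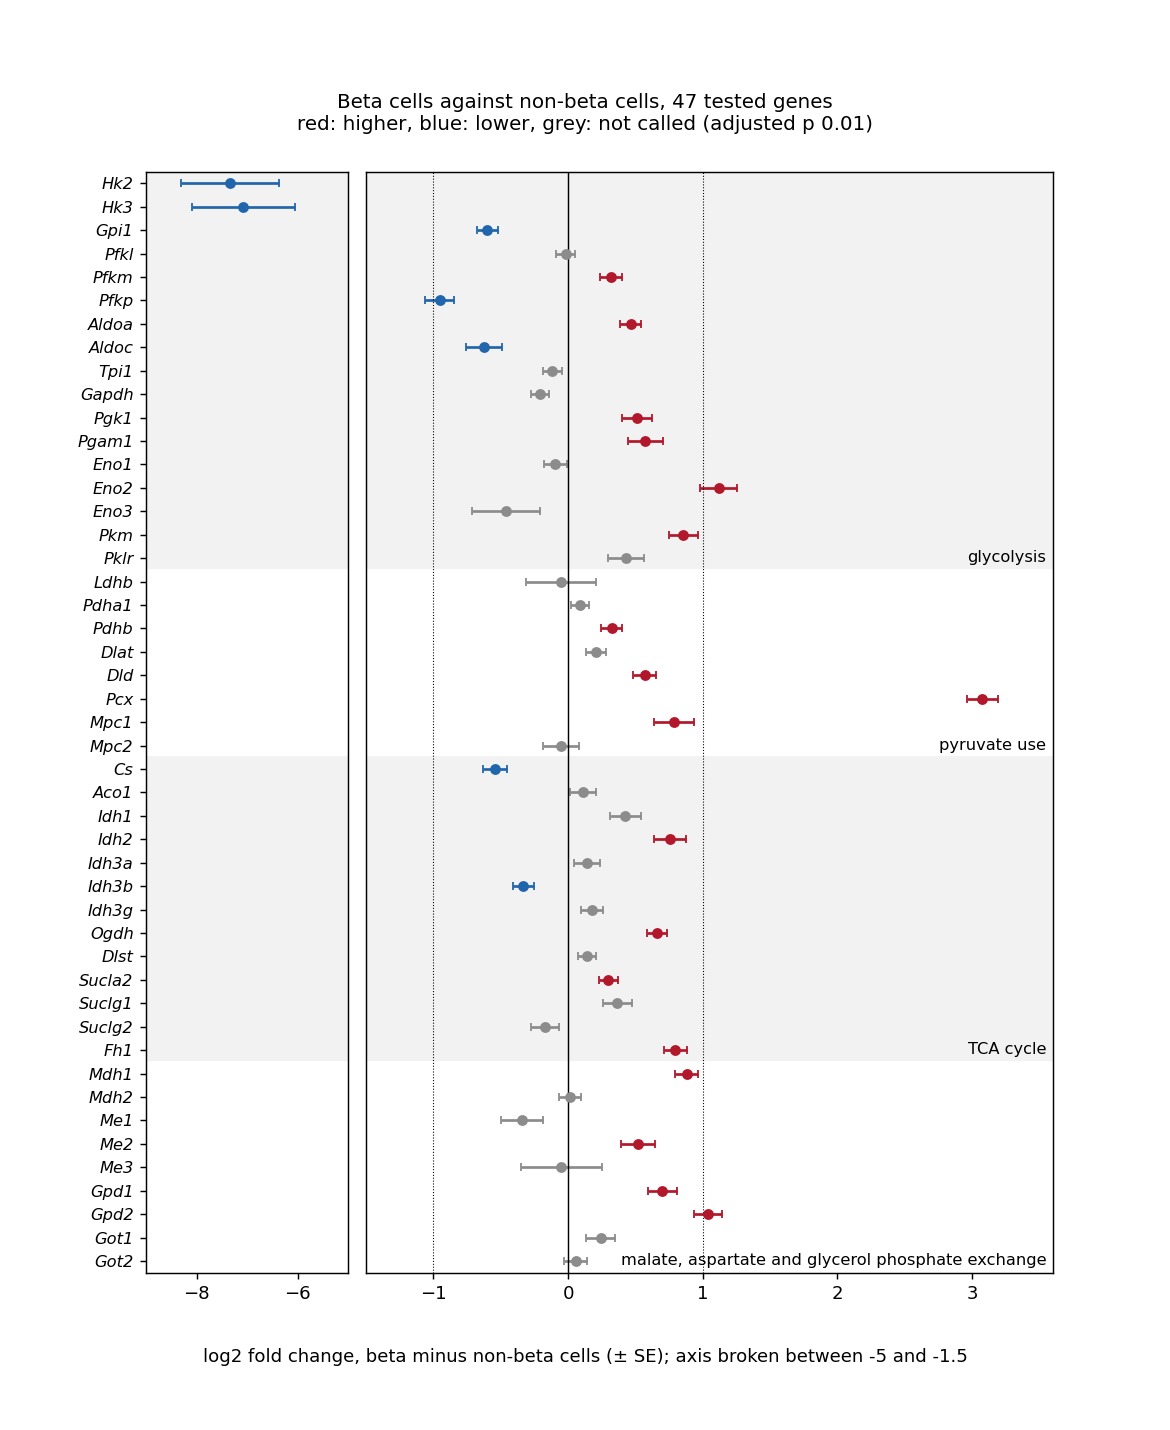
Fitted log2 fold change of beta minus non-beta cells with its SE for the 47 tested members, ordered along the pathway, with red points higher, blue points lower and grey points not called at an adjusted *p* of 0.01. The horizontal axis is broken, dotted lines mark 2-fold changes, and *Pcx* at 3.07 and *Hk2* and *Hk3* below −7, fitted on few counts, lie far from the other 44 members, which fall between −0.95 and 1.12.

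Hexokinases trap glucose in the cell as glucose 6-phosphate. *Hk2*, on chromosome 6 from 82725025 to 82774454 on the minus strand (GRCm38), reached 10.9, 4.77 and 4.44 CPM in the non-beta libraries of mice 1 to 3. In beta cells it had 11 counts in all, from 3 of 8 libraries, so that the 5 others had 0. *Hk3*, on chromosome 13 from 55005985 to 55021385, had 4.13, 4.00 and 3.25 CPM in non-beta cells and 17 counts over the 8 beta cell libraries, from 4 of them. No beta cell library had over 6 counts of either gene, whereas the non-beta libraries summed to 849 counts of *Hk2* and 463 of *Hk3*. The pooled ratio of non-beta to beta was 187 for *Hk2* (95% interval from 104 to 377) and 66.1 for *Hk3* (from 40.8 to 114), intervals that cover counting error only. Both genes passed the filter through the non-beta libraries, so these ratios are a description and not a test. Without the non-beta library of mouse 1, which held 504 of the *Hk2* counts, the ratio for *Hk2* was 123. *Hk3* shares 34 exonic bases with *Unc5a* on the opposite strand.

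After phosphorylation, glucose 6-phosphate is turned into fructose 6-phosphate by glucose phosphate isomerase (*Gpi1*). *Gpi1* had 124, 109, 115 and 101 CPM in the NNAT-positive libraries of mice 1 to 4, 124, 92.5, 105 and 102 CPM in the NNAT-negative ones, and 180, 169 and 156 CPM in non-beta cells. The groups did not overlap, and *Gpi1* was lower by a log2 change of −0.60 (SE 0.08, adjusted *p*=8.49e-05). Phosphofructokinase, the committed step, is built from the muscle (*Pfkm*), liver (*Pfkl*) and platelet (*Pfkp*) subunits. *Pfkp* had 22.3 to 31.6 CPM over the 8 beta cell libraries (26.8, 28.8, 28.8 and 22.3 in NNAT-positive, 31.6, 29.3, 29.8 and 24.3 in NNAT-negative) and 70.0, 48.7 and 52.2 CPM in non-beta cells. It fell by 0.95 on the log2 scale (SE 0.11, adjusted *p*=3.20e-05). *Pfkp* shares 748 exonic bases with *Pitrm1* on the opposite strand, and whether strand was used in the counting is not given in the sources used here.

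Levels per kb divide by the length of all annotated exons of a gene together, which can exceed that of the transcripts expressed. This length was 3340 bases for *Pfkm*, 6675 for *Pfkl* and 13401 for *Pfkp*, so shares and orders per kb depend on it. *Pfkm* was the phosphofructokinase subunit with the highest level per kb in both groups. It had 93.0, 89.0, 104 and 81.9 CPM in the NNAT-positive libraries, 99.9, 112, 100 and 83.2 CPM in the NNAT-negative ones, and 73.2, 78.9 and 88.4 CPM in non-beta cells, so the groups overlapped through mouse 4. Its log2 fold change was 0.32 (SE 0.08, adjusted *p*=0.00791), a call that was lost in 9 of 10 alternative analyses. *Pfkl* had 65.1 to 88.5 CPM in beta and 81.1 to 87.3 CPM in non-beta cells and was not called. As shares of the summed level per kb of the 3 subunits, *Pfkm* took 63.4% to 68.7% in beta cells and 54.96% to 60.9% in non-beta cells. *Pfkp* took 4.48% to 5.28% and 8.96% to 13.1%, also without overlap between the groups.

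Aldolase cleaves fructose 1,6-bisphosphate into triose phosphates. *Aldoa* took 96.6% to 98.0% of the aldolase level per kb in beta cells. It had 444, 411, 415 and 300.3 CPM in the NNAT-positive libraries, 479, 445, 414 and 298 CPM in the NNAT-negative ones and 325, 296 and 323 CPM in non-beta cells. The beta cell libraries of mouse 4 lay within the non-beta range and the other 6 above it, and *Aldoa* rose by 0.46 on the log2 scale (SE 0.08, adjusted *p*=6.11e-04). *Aldoc*, the brain form, moved the other way. It had 14.6, 14.4, 16.5 and 11.1 CPM in the NNAT-positive libraries, 10.9, 12.1, 16.4 and 11.1 CPM in the NNAT-negative ones and 17.9, 24.2 and 23.2 CPM in non-beta cells. For *Aldoc* the fitted change was −0.63 (SE 0.13, adjusted *p*=0.00257), and the call was lost without mouse 2 and without mouse 3.

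In the triose steps, *Tpi1* (triose phosphate isomerase) and *Gapdh* (glyceraldehyde-3-phosphate dehydrogenase) were not called, at log2 fold changes of −0.12 and −0.21. *Pgk1*, phosphoglycerate kinase, had 23.1 to 32.0 CPM in beta and 17.6 to 23.0 CPM in non-beta cells. It rose by 0.51 on the log2 scale (SE 0.11, adjusted *p*=0.00272), a call lost in 4 of 10 alternative analyses. *Pgam1*, the phosphoglycerate mutase of most tissues, had 21.9, 16.8, 23.6 and 16.2 CPM in the NNAT-positive libraries, 23.0, 19.4, 18.5 and 14.0 CPM in the NNAT-negative ones and 14.1, 12.6 and 14.6 CPM in non-beta cells. Its log2 fold change was 0.57 (SE 0.13, adjusted *p*=0.00401), lost in 5 of 10 alternative analyses. *Pgam2*, the muscle form, was the member that did not pass the filter. It had 0 counts in each of the 8 beta cell libraries and 74 counts in non-beta cells, at least 59.8-fold higher there against a floor of 3 counts over the pooled beta cell libraries. Of these counts, 57 were from mouse 1, 12 from mouse 2 and 5 from mouse 3, and without the library of mouse 1 the bound was 22.2-fold. Annotated pseudogenes carry the name of *Aldoa*, *Gapdh*, *Pgk1* and *Pgam1* (2 each), and reads that match such copies can be lost from the counts of these genes.

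Enolase makes phosphoenolpyruvate, and its genes changed order between the group means. *Eno2*, on chromosome 6 from 124760053 to 124769673 on the minus strand, had 97.5, 86.6, 61.4 and 60.7 CPM in the NNAT-positive libraries of mice 1 to 4. It had 96.0, 96.0, 56.3 and 56.3 CPM in the NNAT-negative libraries and 32.8, 42.5 and 35.6 CPM in non-beta cells. Mice 1 and 2 were high and mice 3 and 4 low in both beta cell fractions, and each beta cell library lay above each non-beta library. *Eno2* changed by 1.12 on the log2 scale (SE 0.14, adjusted *p*=6.59e-05). *Eno1* had 43.9, 54.1, 47.3 and 45.1 CPM in the NNAT-positive libraries, 48.7, 64.6, 46.4 and 50.5 CPM in the NNAT-negative ones and 55.8, 61.2 and 45.5 CPM in non-beta cells, overlapped between the groups and was not called. Per kb, *Eno1* took 42.6% to 51.5% of the enolase level in non-beta cells and was the first of the 3 there, against 23.3% to 38.1% in beta cells. *Eno2* took 33.9% to 66.3% in beta cells and 34.6% to 38.3% in non-beta cells, ranges that overlapped because the muscle enolase *Eno3* took up to 41.0% in mouse 4.

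*Pkm*, which encodes the muscle pyruvate kinase, had the highest level per kb of all members in beta cells, a mean of 151 CPM per kb against 88.2 CPM per kb in non-beta cells. It had 806, 724, 749.7 and 588 CPM in the NNAT-positive libraries, 847, 945, 729 and 642 CPM in the NNAT-negative ones and 464, 400.4 and 459 CPM in non-beta cells. The groups did not overlap, and *Pkm* rose by 0.86 on the log2 scale (SE 0.11, adjusted *p*=6.97e-05). *Pklr*, the liver and red cell pyruvate kinase, had 13.5 to 24.4 CPM in beta and 13.2 to 19.2 CPM in non-beta cells and was not called (adjusted *p*=0.0201). *Pkm* made up 95.5% to 96.9% of the pyruvate kinase level per kb in beta cells and 93.1% to 95.8% in non-beta cells. Counts per gene do not separate the splice forms of *Pkm*.

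**Figure D2:**
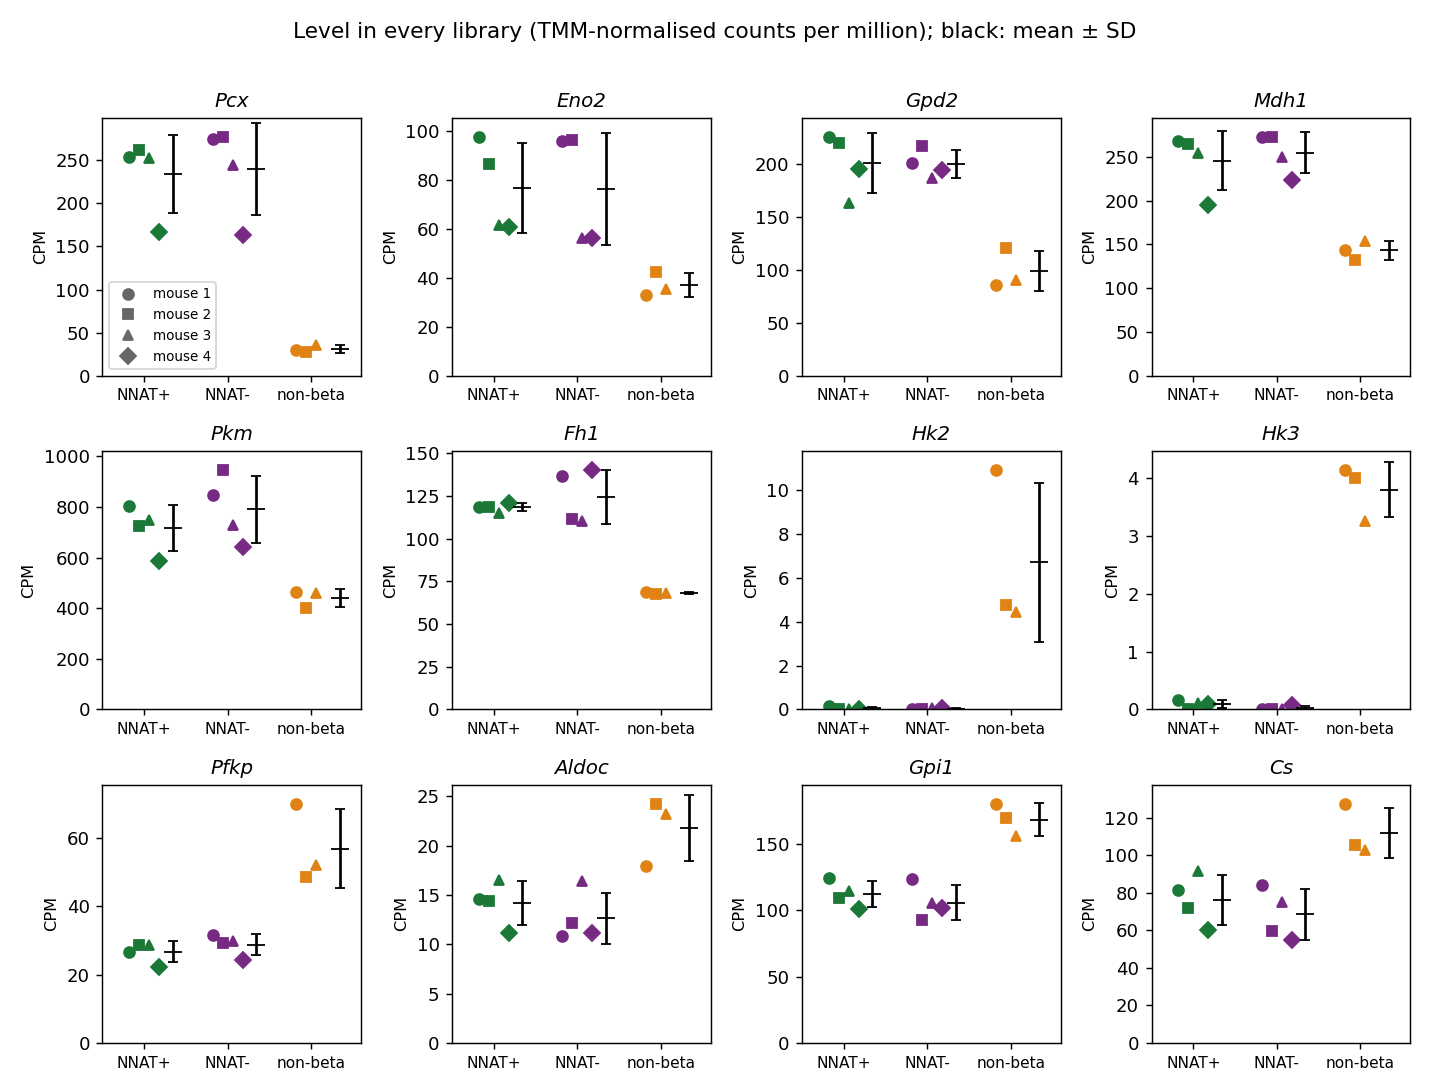
Level in CPM of the 6 members with the largest rises and the 6 with the largest falls in beta against non-beta cells, with 1 symbol per mouse and the mean ± SD of each group in black (n = 4, 4 and 3). The beta cell libraries lie above the non-beta libraries for *Pcx*, *Eno2*, *Gpd2*, *Mdh1*, *Pkm* and *Fh1* and below them for *Hk2*, *Hk3*, *Pfkp*, *Aldoc*, *Gpi1* and *Cs*.

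Of the 8 genes of pyruvate use, 4 were higher in beta cells, none was lower and 4 were not called, against 17.2% of all tested genes higher and 23.9% lower. *Pcx*, on chromosome 19 from 4510472 to 4621752 on the plus strand, had 254, 262, 252 and 166 CPM in the NNAT-positive libraries of mice 1 to 4. It had 274, 277, 245 and 163 CPM in the NNAT-negative libraries and 29.4, 27.4 and 36.3 CPM in non-beta cells. Even the lowest beta cell library, that of mouse 4, stood far above the highest non-beta library. The log2 fold change was 3.07 (SE 0.12, adjusted *p*=2.14e-08), and 3.06 and 3.09 for the NNAT-positive and NNAT-negative fraction each against the same non-beta libraries. *Mpc1* and *Mpc2* together form the mitochondrial pyruvate carrier. *Mpc1* had 12.8, 12.2, 11.5 and 14.8 CPM in the NNAT-positive libraries, 13.7, 14.0, 11.3 and 14.8 CPM in the NNAT-negative ones and 7.83, 8.66 and 5.65 CPM in non-beta cells. It rose by 0.78 on the log2 scale (SE 0.15, adjusted *p*=0.00135), a call lost without mouse 3. *Mpc2* had 20.995 to 34.01 CPM in beta and 26.1 to 34.8 CPM in non-beta cells and was not called. *Mpc1* thus took 57.4% to 71.3% of the carrier level per kb in beta cells and 36.4% to 52.7% in non-beta cells. The order of the pair depended on exon length, 2082 bases for *Mpc1* and 7344 for *Mpc2*. In CPM, *Mpc2* was the higher gene in each library.

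The pyruvate dehydrogenase complex oxidises pyruvate to acetyl-CoA. Its E3 subunit gene *Dld*, shared with the oxoglutarate dehydrogenase complex, had 80.9 to 121 CPM in beta and 65.1 to 74.0 CPM in non-beta cells and rose by 0.57 on the log2 scale (SE 0.09, adjusted *p*=2.72e-04). *Pdhb*, the E1 beta subunit, rose by 0.32 (adjusted *p*=0.00547), a call lost in 4 of 10 alternative analyses. *Pdha1*, the E1 alpha subunit and the highest of the complex per kb, had 138, 139.7, 136 and 118 CPM in the NNAT-positive libraries, 132, 131, 135 and 124 CPM in the NNAT-negative ones and 132, 121 and 128 CPM in non-beta cells, and was not called. *Pdha1* shares 603 exonic bases with *Map3k15* on the opposite strand, which had 98679 counts against 54117 for *Pdha1*. *Dlat*, the E2 subunit, was not called either (log2 fold change 0.21, adjusted *p*=0.0376). *Ldhb*, the heart lactate dehydrogenase, was low in each library, with 6.07 to 14.7 CPM in beta cells and 5.97 to 14.6 CPM in non-beta cells.

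In the TCA cycle, 4 of 13 members were higher in beta cells, 2 were lower and 7 were not called, against 17.2% higher and 23.9% lower of all tested genes, a gap of few genes. *Cs*, citrate synthase, which opens the cycle, fell. It had 81.2, 72.0, 91.6 and 60.4 CPM in the NNAT-positive libraries, 84.2, 59.9, 75.1 and 54.98 CPM in the NNAT-negative ones and 127, 106 and 103 CPM in non-beta cells. These groups did not overlap, and the log2 fold change was −0.54 (SE 0.09, adjusted *p*=5.28e-04). *Fh1*, fumarase, showed the opposite. It had 119, 119, 115 and 121 CPM in the NNAT-positive libraries, 137, 111, 111 and 140.1 CPM in the NNAT-negative ones and 68.6, 67.8 and 68.0 CPM in non-beta cells. The non-beta values of *Fh1* lay within 1 CPM of each other, and its log2 fold change was 0.80 (SE 0.08, adjusted *p*=1.92e-05).

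*Idh2*, the mitochondrial NADP-dependent isocitrate dehydrogenase, had 135, 148, 136 and 153 CPM in the NNAT-positive libraries, 155, 169, 126 and 157 CPM in the NNAT-negative ones and 81.3, 76.1 and 99.1 CPM in non-beta cells. It rose by 0.76 on the log2 scale (SE 0.12, adjusted *p*=3.32e-04) without overlap. Its cytosolic counterpart *Idh1* had a log2 fold change of 0.42 and an adjusted *p* of 0.0107. Of the subunits of the NAD-dependent enzyme, *Idh3b* changed by −0.33 on the log2 scale (SE 0.08, adjusted *p*=0.00419). Its range in beta cells, 41.3 to 68.6 CPM, enclosed that of non-beta cells, 53.3 to 57.1 CPM, because the libraries of mouse 4 had 66.2 and 68.6 CPM. In mice 1 to 3 each beta cell library of *Idh3b* was below the non-beta libraries, and the call was lost in 5 of 10 alternative analyses. *Idh3g*, the highest subunit per kb, had 73.2, 80.2, 80.9 and 81.0 CPM in the NNAT-positive libraries, 79.0, 65.9, 68.6 and 76.9 CPM in the NNAT-negative ones and 65.7, 64.0 and 68.0 CPM in non-beta cells, and neither it nor *Idh3a* was called.

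*Ogdh*, the E1 subunit of the oxoglutarate dehydrogenase complex, had 446, 450.3, 446 and 270 CPM in the NNAT-positive libraries, 403, 421, 419 and 251 CPM in the NNAT-negative ones and 274, 265 and 280.3 CPM in non-beta cells. In mice 1 to 3 the beta cell libraries were well above the non-beta libraries, and in mouse 4 they were within or below their range. The log2 fold change was 0.66 (SE 0.07, adjusted *p*=3.48e-05), and the call was lost without the mouse block, a fit in which the levels of mouse 4 enter the mean of beta cells. *Sucla2*, the ATP-forming subunit of succinyl-CoA ligase, had 85.2, 85.0, 85.7 and 80.0 CPM in the NNAT-positive libraries, 81.1, 87.9, 87.7 and 91.0 CPM in the NNAT-negative ones and 68.1, 65.5 and 74.8 CPM in non-beta cells. It rose by 0.30 on the log2 scale (SE 0.07, adjusted *p*=0.00603), a call lost in 6 of 10 alternative analyses. *Suclg1*, *Suclg2*, *Dlst* and *Aco1*, the cytosolic aconitase, were not called.

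Among the genes of malate, aspartate and glycerol phosphate exchange, 4 of 9 were higher in beta cells and none was lower, against the same 17.2% and 23.9%. *Mdh1*, the cytosolic malate dehydrogenase, had 268, 265, 255 and 195 CPM in the NNAT-positive libraries, 272, 273, 249.9 and 224 CPM in the NNAT-negative ones and 144, 132 and 154 CPM in non-beta cells. It rose by 0.88 on the log2 scale (SE 0.09, adjusted *p*=1.21e-05), with no overlap. Its mitochondrial partner *Mdh2* had 100.4 to 140.3 CPM in beta and 121 to 138 CPM in non-beta cells, and a log2 fold change of 0.01 whose sign changed with the scaling. *Mdh1* therefore took 71.6% to 75.6% of the malate dehydrogenase level per kb in beta cells and 59.4% to 60.7% in non-beta cells.

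Both genes of the glycerol phosphate shuttle, which moves electrons from cytosolic NADH to the respiratory chain, rose. *Gpd2*, on chromosome 2 from 57237635 to 57370719 on the plus strand, had 226, 221, 163 and 195 CPM in the NNAT-positive libraries, 202, 218, 187 and 194 CPM in the NNAT-negative ones and 86.1, 121 and 90.8 CPM in non-beta cells. *Gpd2* thus changed by 1.04 on the log2 scale (SE 0.10, adjusted *p*=1.45e-05). *Gpd1*, the cytosolic enzyme, had 33.7 to 47.4 CPM in beta and 22.2 to 27.6 CPM in non-beta cells and rose by 0.70 (SE 0.11, adjusted *p*=3.59e-04). Malic enzymes return malate to pyruvate and form NADPH or NADH. *Me2*, the mitochondrial NAD-dependent form, rose by 0.52 (SE 0.13, adjusted *p*=0.00626), a call lost in 6 of 10 alternative analyses. *Me1*, the cytosolic form and the highest per kb in both groups, had 15.1, 20.7, 14.8 and 11.3 CPM in the NNAT-positive libraries, 20.5, 18.1, 17.6 and 11.0 CPM in the NNAT-negative ones and 22.4, 19.4 and 25.9 CPM in non-beta cells, and was not called. *Me1* took 45.3% to 55.5% of the malic enzyme level per kb in beta cells and 59.6% to 70.2% in non-beta cells. In CPM, *Me2* was the higher in beta cells (mean 27.6 against 16.1), with exon lengths of 7252 bases for *Me2* and 3848 for *Me1*. The aspartate aminotransferases *Got1* and *Got2* were not called. *Got2*, the mitochondrial form and on average the higher of the pair per kb, had 67.0, 66.5, 71.3 and 45.2 CPM in the NNAT-positive libraries, 73.1, 56.2, 68.0 and 42.0 CPM in the NNAT-negative ones and 65.1, 65.5 and 62.2 CPM in non-beta cells.

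**Figure D3:**
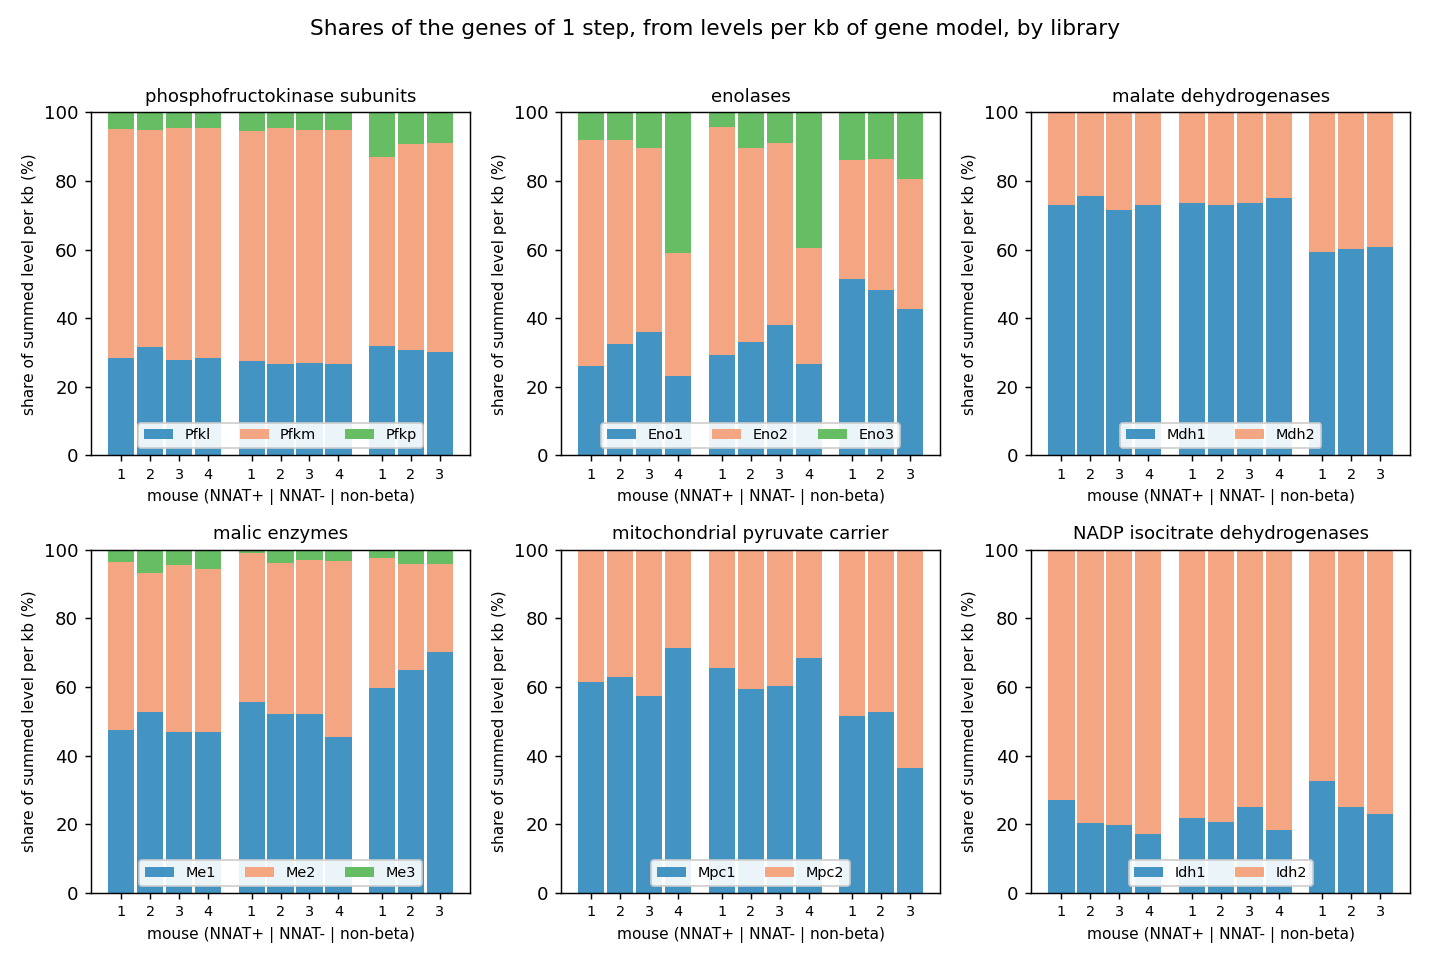
Share of each gene in the summed level per kb of gene model of its step (percent), 1 bar per library, grouped as NNAT-positive (mice 1 to 4), NNAT-negative (mice 1 to 4) and non-beta (mice 1 to 3). *Mdh1*, *Mpc1* and *Pfkm* take a larger share in each beta cell library than in any non-beta library, and *Eno3* stands out in both beta cell libraries of mouse 4.

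The size of the difference in all members together depended on what the level was set against. The members took 0.431% to 0.478% of the counts in beta cell libraries and 0.341% to 0.411% in non-beta libraries, a ratio of 1.21 (SD 0.082 over mice 1 to 3). With the insulin genes left out of the totals the shares were 0.530% to 0.666% and 0.345% to 0.415%, a ratio of 1.63 (SD 0.177). The members thus held a larger share of the counts in each beta cell library than in any non-beta library on both scales.

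The genes around the pathway were described from a second list of 48, of which 44 were tested. In beta cells 14 of these were higher (31.8%) and 8 lower (18.2%), read against the same 17.2% and 23.9% of all tested genes. The 3 with the smallest adjusted *p* among the higher ones were *Pfkfb2*, which sets the fructose 2,6-bisphosphate that activates phosphofructokinase (log2 fold change 2.43, SE 0.11), *Acly*, which splits exported citrate (1.65, SE 0.11), and *Tigar*, a fructose bisphosphatase (1.67, SE 0.13). The lower ones included *Pdk4*, a kinase that switches off pyruvate dehydrogenase (−5.94, SE 0.26), and *Glud1*, glutamate dehydrogenase (−1.32, SE 0.07). *Pdk4* had 112, 174 and 188 CPM in non-beta cells and 1.13 to 4.97 CPM in beta cells.

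The comparison that the design names is that of beta cells labelled NNAT-positive and NNAT-negative. None of the 47 tested members was called between these fractions by edgeR, against 0.0517% of all tested genes called higher and 0% called lower. With so low a share over all genes, the lack of calls says little about the members. None was called by DESeq2 either, for which the share over all genes is not given here. At an unadjusted *p* below 0.05, 1 member was higher (*Me3*) and none was lower, against 4.82% and 0.746% of all tested genes. The median log2 fold change was −0.02 over the members and 0.05 over all tested genes, with 23 members above and 24 below 0. For 42 of 47 members the fitted difference plus 2 SE on either side stayed within 1.5-fold, and the largest difference among those 42 was 0.17 on the log2 scale. The other 5 were *Hk2*, *Hk3*, *Eno3*, *Ldhb* and *Me3*, for which this range reached beyond 1.5-fold.

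*Me3*, the mitochondrial NADP-dependent malic enzyme, on chromosome 7 from 89632392 to 89854359 on the plus strand, had 4.21, 10.0, 5.26 and 5.19 CPM in the NNAT-positive libraries of mice 1 to 4. It had 1.47, 5.27, 3.97 and 2.90 CPM in the NNAT-negative libraries and 3.46, 4.58 and 5.73 CPM in non-beta cells. The NNAT-positive library was the higher one in 4 of 4 mice although the groups overlapped. The fitted log2 fold change was 0.91 (SE 0.31), with a *p* of 0.0142 before and 0.686 after adjustment in edgeR's fit over all genes. The antisense gene *A230065N10Rik* shares 569 exonic bases with *Me3*.

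The next smallest unadjusted *p* values by edgeR were those of *Hk3*, *Cs*, *Suclg1* and *Ldhb*. *Hk3* had 0.169, 0, 0.105 and 0.0914 CPM in the NNAT-positive libraries and 0, 0, 0 and 0.0820 CPM in the NNAT-negative ones, which is at most 6 counts a library and carries no direction. *Cs* differed by 0.16 on the log2 scale (SE 0.09, adjusted *p*=0.895), with the per-library values given above, and was higher in the NNAT-positive library in 3 of 4 mice. *Suclg1*, the alpha subunit of succinyl-CoA ligase, had 73.0, 60.5, 74.0 and 61.0 CPM in the NNAT-positive and 68.2, 87.8, 79.8 and 67.0 CPM in the NNAT-negative libraries, a fitted log2 difference of −0.17 (SE 0.11, adjusted *p*=0.897). *Ldhb* had 6.07, 8.23, 6.70 and 13.5 CPM in the NNAT-positive and 10.3, 11.9, 8.27 and 14.7 CPM in the NNAT-negative libraries. It was lower in the NNAT-positive library in 4 of 4 mice, and the fitted log2 difference was −0.41 (SE 0.26, adjusted *p*=0.897). The members with the largest differences from non-beta cells lay close together here, *Pcx* at −0.03 (SE 0.10), *Eno2* at 0.02 (SE 0.13) and *Gpd2* at 0.00 (SE 0.10).

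Markers of non-beta endocrine cells did move between the fractions. By the labels, *Rbp4*, *Ppy* and *Pyy* were called higher in the NNAT-positive libraries (log2 fold changes of 1.41, 1.53 and 1.35). The study's text gives the reverse for *Ppy* and *Pyy*, which it reports as lower in NNAT-positive beta cells. Like *Nnat*, these genes thus went against the study's naming, and under the other naming their directions would change sign. Summed delta cell markers were at 1403 to 2490 CPM in the NNAT-positive and 544 to 1046 CPM in the NNAT-negative libraries. Summed alpha cell markers were at 3290 to 4494 CPM in the NNAT-positive and 2057 to 2903 CPM in the NNAT-negative libraries. The NNAT-positive library of mouse 2 also held 1699 CPM of acinar markers. The part of these markers in the members' differences was not tested.

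Against the same non-beta libraries, 13 members were higher and 5 lower in the NNAT-positive fraction, and 18 were higher and 7 lower in the NNAT-negative fraction. The background for these counts was 15.8% and 19.1% of all tested genes for the NNAT-positive fraction and 15.6% and 21.3% for the NNAT-negative one. Both comparisons share their controls, and the difference between their counts was not tested.

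**Figure D4:**
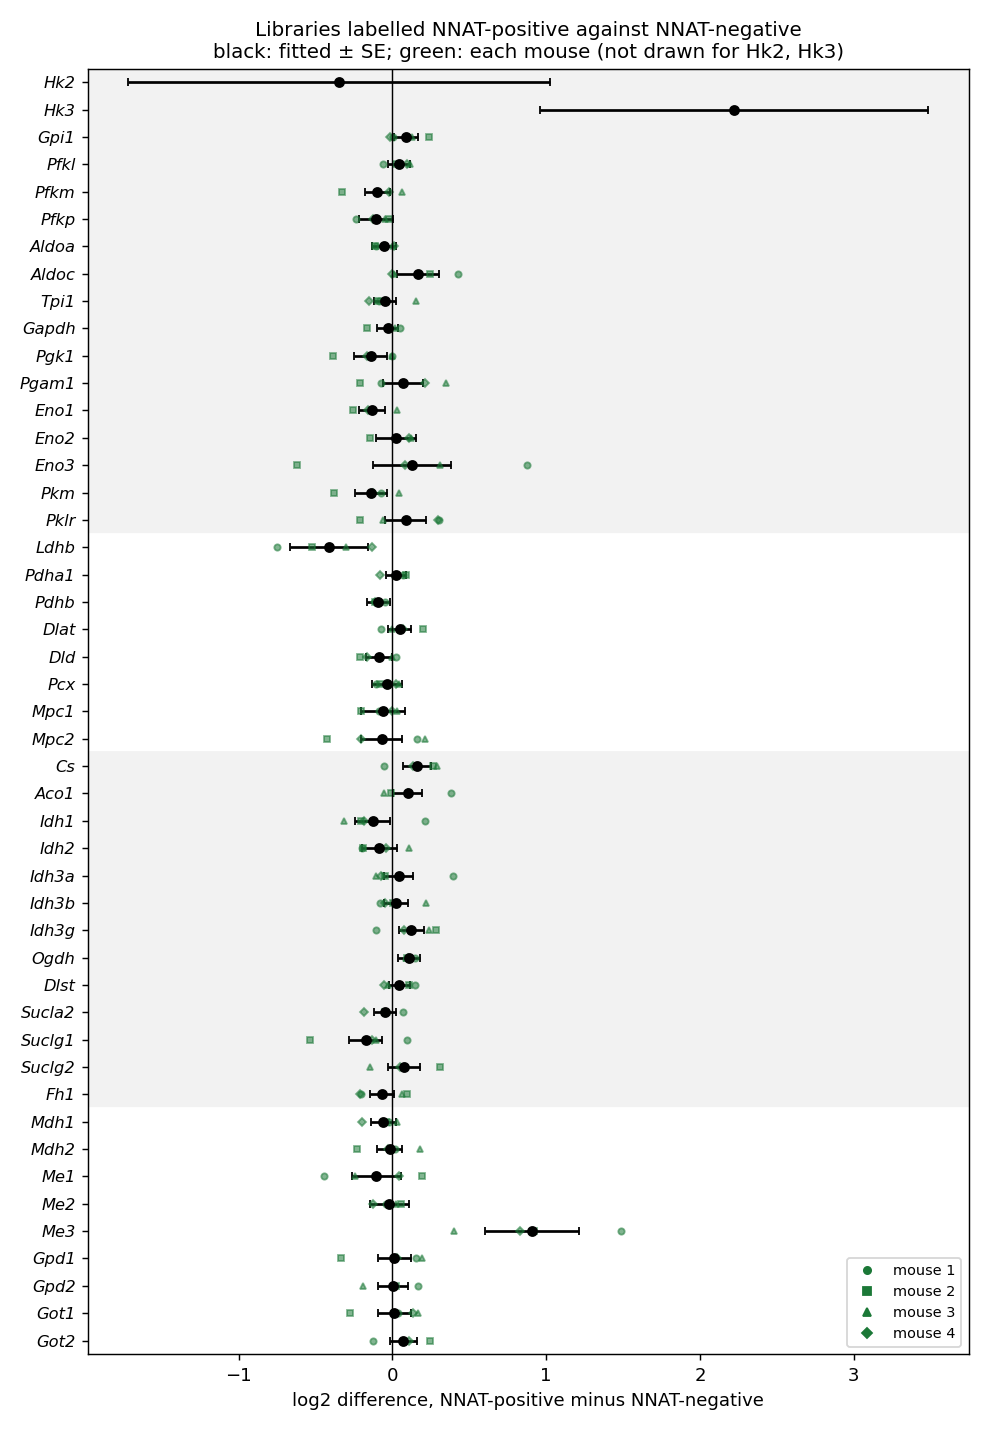
Fitted log2 difference of NNAT-positive minus NNAT-negative libraries with its SE (black) and the difference within each of the 4 mice (green) for the 47 tested members. Except for *Hk2*, *Hk3*, *Ldhb* and *Me3*, the fitted differences lie between −0.17 and 0.17, and *Me3* is above 0 in 4 of 4 mice.

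The members varied more between mice than between the labelled fractions. Of the spread of log2 CPM over the 8 beta cell libraries, the mouse took a median of 78.3% over the members and the fraction 3.37%, against 63.1% and 5.599% over all tested genes. These are shares of sums of squares, not divided by degrees of freedom. The mouse has more of these than the fraction, so part of the gap would arise without any difference between mice. For *Eno2* the mouse took 97.4% and for *Pcx* 98.4%. Mouse 4 stood furthest from the others. After TMM scaling its beta cell libraries were below those of the other mice for 36 of 47 members (76.6%), with a median log2 difference of −0.27, against 49.2% and 0.01 over all tested genes. *Ogdh* was lower by 0.73 on average in mouse 4 and *Pcx* by 0.66 on the log2 scale. The members that went the other way included *Idh3b*, *Ldhb* and above all *Eno3*, the muscle enolase, with 25.7 and 24.3 CPM in mouse 4 against 2.32 to 6.55 CPM in the beta cell libraries of the other mice.

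These counts depended on the scaling. By total counts alone, 24 of 47 members were lower in mouse 4 (51.1%), with a median difference of −0.00, against 27.0% and 0.29 over all tested genes. With RLE scaling the count was 35 of 47, and with the insulin genes left out of the total it was 33 of 47. *Pcx* and *Ogdh* were lower and *Eno3* higher in mouse 4 under each of these 4 scalings. Insulin took 17.8% and 18.0% of the counts in the libraries of mouse 4 and 24.0% to 34.4% in the other beta cell libraries, and *Nnat* was highest in mouse 4 within each fraction. A single mouse carries this pattern, so that no test of it was made, and the part of the insulin share or of library preparation in it was not tested.

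**Figure D5:**
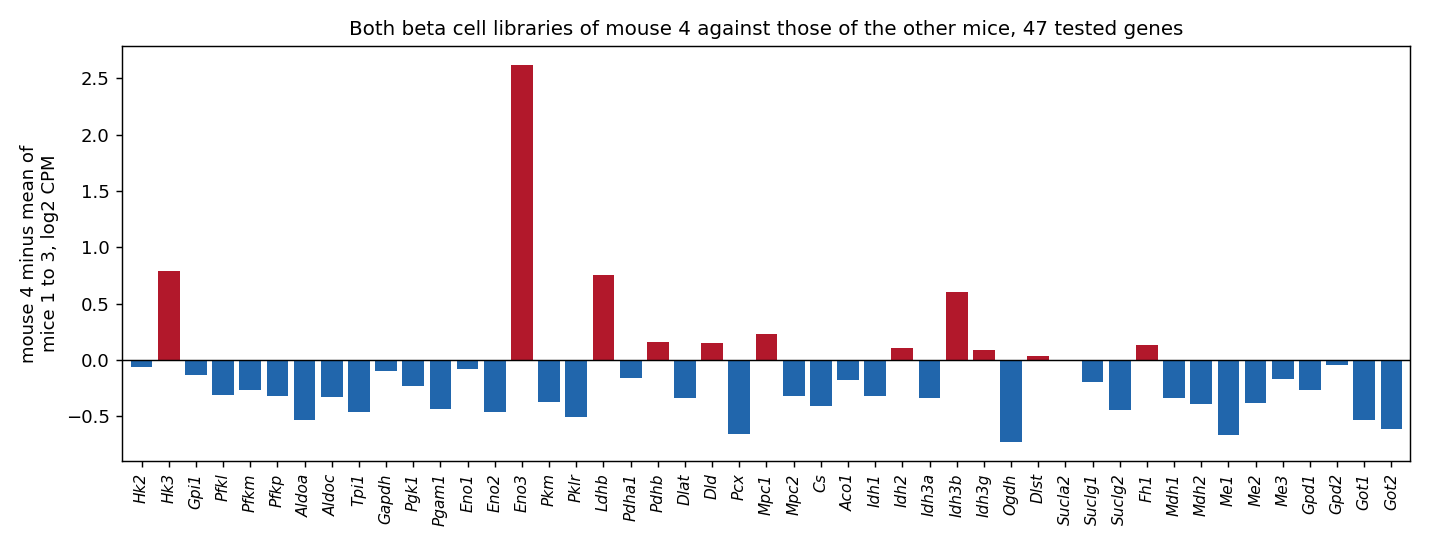
Mean log2 CPM of the 2 beta cell libraries of mouse 4 minus that of the 6 libraries of mice 1 to 3 for the 47 tested members, in pathway order, with blue bars below and red bars above 0. Mouse 4 is lower for 36 of 47 members, and *Eno3* is the highest bar at 2.62.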

How the data were processed

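The authors sorted dissociated islet cells by FACS, with dead cells and doublets gated out, and made directional poly(A)-selected libraries from 20 ng of RNA. Per the labels and the paper's methods, paired reads were aligned to mm10 with STAR 2.7.1a and the deposited values are STAR's whole-number counts per gene on gencode vM25, without normalisation. The strand setting of the counting was not given in the sources used here. The submitters' processing notes also name DESeq2 1.32.0. Each replicate is 1 mouse, but several fractions come from the same mouse. The table holds 11 sample columns, all used.

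Counts were analysed in R 4.3.3 with edgeR 4.0.16 (TMM normalisation, filterByExpr by fraction, quasi-likelihood test, all 11 libraries in 1 fit with the mouse as a block), which kept 17424 genes. Adjustment (Benjamini-Hochberg) ran over these genes, and calls were made below an adjusted *p* of 0.01. Beta cells are the mean of both beta cell fractions. An SE is the log2 change over the root of its *F* value. Library sizes for CPM were TMM-scaled, and log2 CPM used a prior count of 2. Levels per kb used the length of all annotated exons of a gene together in gencode vM21 (GRCm38), which also gave coordinates. Alternatives used RLE scaling, DESeq2 1.42.0, no filter, no block, only the beta cell libraries, the 50 most abundant genes left out, an adjusted *p* below 0.05, and each mouse left out in turn. One without the block and mouse 4 was chosen after seeing the data, as were the scalings of mouse 4 and the ratios without 1 non-beta library.

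The mouse was kept as a block because the replicate numbers mark mice. Departures of libraries from their group's mean had an average correlation of 0.314 for the beta cell fractions of 1 mouse (4 pairs, 0.182 to 0.658) and of −0.103 for fractions of different mice (12 pairs). For beta and non-beta libraries of 1 mouse the mean was 0.0828 (6 pairs, 0.0321 to 0.125).

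The members and lists were chosen with earlier results of these data known. Values in each library are given for the 6 largest rises and falls in beta cells, for the highest gene per kb of each step with several genes, and for the 5 smallest *p* values between the labelled fractions. Of related genes, the 3 with the smallest adjusted *p* in each direction were to be named, of which 1 is not reported here. Sequences are RefSeq's, for GRCm38.p6. A second, nearly empty gene model named *Aldoa* was kept apart. A floor of 3 counts is at most 0.102 CPM in any library, and intervals cover counting error only. On simulated counts, edgeR recovered 51 of 100 genes changed by 1 on the log2 scale and 79 of 100 changed by 2 in beta against non-beta cells (16829 genes), and 54 and 78 of 100 between the labelled fractions (16812 genes). It called 2 and 3 unchanged genes. The simulation drew each gene around 1 mean for all libraries, without differences between mice, and changed only well-counted genes. These figures therefore do not give the recovery or the false calls for the real libraries.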

Additional observations from a re-analysis of the deposited data

Results flagged for a closer look

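Within the 4 libraries of each labelled beta cell fraction, 12 of 94 sets of values had a library set apart from the other three by Dixon's criterion, which flags about 1 in 20 sets by chance. Of these, 10 were a library of mouse 4 and 2 a library of mouse 1. The flags were sought after TMM scaling only. The TMM factor was 1.12 in the NNAT-positive library of mouse 4 and 0.933 to 0.964 in those of mice 1 to 3. By total counts alone 24 of 47 members were lower in mouse 4, against 36 with TMM, so a low flag may not hold on another scale. In the NNAT-positive library of mouse 4, *Eno3* was high at 25.7 CPM (others 4.25 to 4.35). In the same library *Ogdh* was low at 270 CPM (others 446 to 450.3), *Pcx* at 166 CPM (others 252 to 262), *Pdha1* at 118 CPM (others 136 to 139.7), *Sucla2* at 80.0 CPM (others 85.0 to 85.7), *Dlat* at 60.5 CPM (others 75.2 to 76.1), *Me2* at 21.6 CPM (others 28.95 to 29.99) and *Pklr* at 16.6 CPM (others 21.1 to 21.4). In the NNAT-negative library of mouse 4, *Ogdh* was low at 251 CPM (others 403 to 421). *Idh3g* was low in the NNAT-positive library of mouse 1, at 73.2 CPM (others 80.2 to 81.0). The other 2 sets hold hardly any counts: *Hk2* at 0.169 CPM in the NNAT-positive library of mouse 1 and *Hk3* at 0.0820 CPM in the NNAT-negative library of mouse 4, each with 0 in the others.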

How the results depend on the processing

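The number of members higher in beta cells was 18 in the main analysis and 12 to 22 in the others, except that it was 11 without mouse 3 (11 to 15 with 1 mouse left out). The number lower was 7, and 5 to 8 in the others. Over all tested genes, 17.2% were higher and 23.9% lower in the main analysis, and 11.1% and 16.7% without mouse 3. Over all fits at an adjusted *p* below 0.01 these shares ran from 10.5% to 19.3% and from 15.9% to 29.8%. Members higher by more than 2-fold numbered 3 in the main analysis, against 6.22% of all tested genes. They numbered 1 without mouse 1 (1 to 3 with 1 mouse left out), for which this share is not given here. Without the mouse as a replicate block 12 were higher and 6 lower, against 13.5% and 22.7% of all tested genes. In that fit 7 calls were lost (*Pfkm*, *Aldoa*, *Pgk1*, *Pgam1*, *Idh3b*, *Ogdh* and *Me2*). No called member changed direction. The ratio of the members' summed share of counts was 1.21, and 1.63 with insulin left out. No member was called between the labelled fractions under any of the alternatives. In the main analysis 0.0517% of all tested genes were called higher and 0% lower, so this says little about the members.

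Signs changed for members that were not called. Without the block these were *Eno3* (0.728), *Ldhb* (0.108), *Mdh2* (−0.0770) and *Got2* (−0.0709). With RLE scaling they were *Mdh2* (−0.0659) and *Got2* (−0.0203), with DESeq2 the same pair (−0.0660 and −0.0202), and with the 50 most abundant genes left out *Mdh2* (−0.00786). Without the block and mouse 4, *Me3* was at 0.0867. With 1 mouse left out, *Pfkl* ran from −0.104 to 0.0190, *Ldhb* from −0.347 to 0.420, *Mpc2* from −0.159 to 0.0783, *Mdh2* from −0.0531 to 0.0533 and *Me3* from −0.392 to 0.151. The cause was not tested.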
